A study of Mus musculus with 14 samples.

Results

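The genes described here belong to the protein-folding machinery of the endoplasmic reticulum (ER) and to the unfolded protein response (UPR), together with genes of ER-associated degradation (ERAD) and of the translocon. A list of 44 genes was drawn up by name and function, with earlier results of these data known. Of these, 43 were measured among 22180 genes on the arrays. The probe set that would carry Pdia4 was annotated with more than 1 gene, so Pdia4 was not analysed here. Liver RNA was taken from 14 males of the inbred mouse strain C57BL/6J, with no further allele or agent in the labels. The sleep-deprived group held 7 mice (numbers 1, 2, 3, 5, 6, 10 and 13) and the control group 7 (numbers 4, 7, 8, 9, 11, 12 and 14). The series title gives the sleep deprivation as a 6 h episode and names glucose intolerance and fat in the liver as its subject. The age of the mice, their feeding state, the hour of collection and which of the 3 named methods of disturbing sleep preceded the arrays were not found in the labels. Levels are log2 expression per probe set, so that a difference of 1 is a doubling. Any pair of arrays correlated between 0.9887 and 0.9953 over named probe sets.

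Hepatocytes secrete most plasma proteins and fold them in the ER with the help of chaperones such as BiP, encoded by Hspa5. When unfolded protein accumulates there, the membrane sensors IRE1 (Ern1), ATF6 and PERK (Eif2ak3) start the UPR: IRE1 splices the Xbp1 message, ATF6 is cut to release a transcription factor, and PERK slows translation and favours ATF4. Their target genes encode chaperones, disulfide-forming enzymes and the ERAD apparatus, which returns misfolded proteins to the cytosol for degradation. Arrays of this kind measure total message and do not tell spliced from unspliced Xbp1, cut from uncut ATF6, or active from inactive sensors.

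After sleep deprivation, some of these genes were slightly higher. Of the 43 measured, 11 were higher and 1 was lower in sleep-deprived mice (limma, adjusted p under 0.05), which is 25.6% and 2.3% of them. Over all 22180 genes, 3.88% were higher and 4.62% lower. The list was drawn up with earlier results of these data known, so these shares were not compared by a test. These genes are bright as a group, 42 of the 43 lying above the median level of all genes. When only the genes above that median were tested, 13 of those 42 were higher and 1 lower, beside 9.43% higher and 10.9% lower among all such genes. The median log2 difference of the 43 genes was 0.033, beside -0.0048 over all genes, and 24 of the 43 differences were positive. No difference reached 1.5-fold in either direction, with a range from -0.40 (Pdia5) to 0.56 (Creld2). The genes that rose were the chaperones and co-chaperones Creld2, Hyou1, Dnajc3 and Dnajb11, the oxidase Ero1l, the sensors Atf6, Atf6b and Ern1, and the ERAD genes Herpud1, Edem3 and Syvn1. At 2 of the 43 genes, Creld2 and Dnajc3, every sleep-deprived mouse lay outside the control range on the same side; such a split was seen at 3.13% of all genes.

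**Figure D1:**
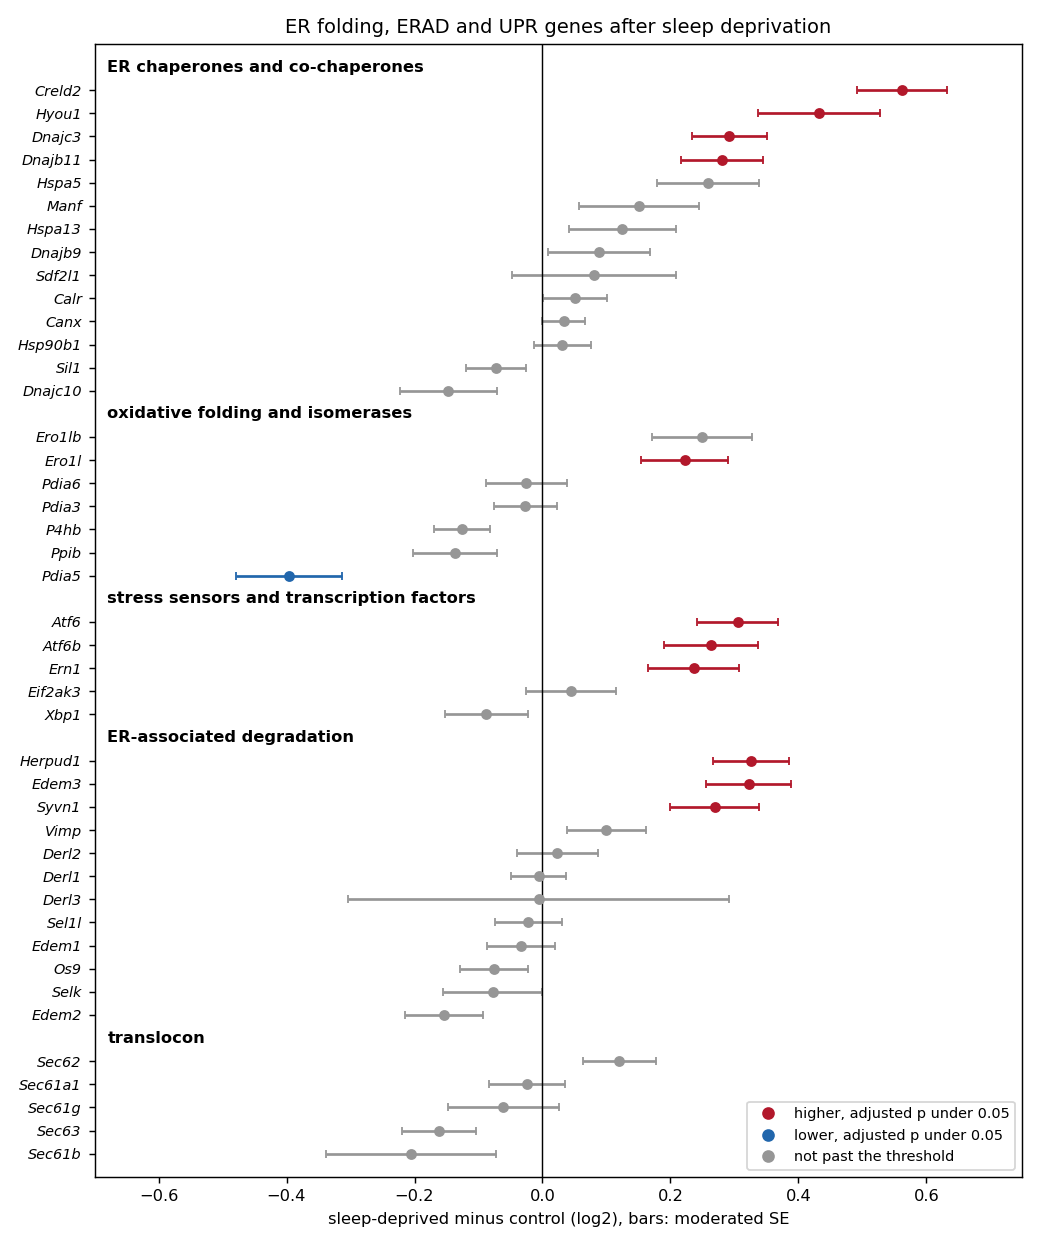
Log2 difference between sleep-deprived and control mice (x axis) for the 43 measured genes, grouped by role, with limma's moderated SE as bars and n = 7 mice per group. Red marks the 11 genes that were higher, blue the 1 that was lower (Pdia5), and grey the 31 that did not pass the adjusted threshold of 0.05; all lie between -0.40 and 0.56.

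The promoters of many ER chaperone genes are known to carry the ER stress response element (ERSE), a CCAAT box that binds NF-Y and, at a fixed distance, a CCACG end that binds ATF6. Its letters, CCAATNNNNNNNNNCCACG, were sought on both strands of RefSeq windows from 250 bases before to 50 after each gene's start (GRCm38.p6). A window was listed for 36 of the 43 genes, and 10 of these (27.8%) held the element, while 37 of all 27025 genes with a window did (0.137%). The shorter ERSE-II, ATTGGNCCACG, stood in 2 of the 36 genes (Herpud1 and Dnajb11) and in 12 of all such genes (0.0444%). The genes were chosen for their function and the element is known from this family, so its frequency among them describes the list and was not tested. TGACGTGG, letters bound by ATF6 and XBP1, occurred in 0 of the 36 genes and in 193 of all genes with a window (0.714%). TTGCATCA, letters bound by ATF4, occurred in 1 of the 36 (Herpud1) and in 279 of all such genes (1.03%). ERSE, ERSE-II and TGACGTGG have CCACG in common when read on the matching strand, and TTGCATCA overlaps none of them.

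The promoter stretches are given to compare 4 genes that rose with 3 that carry an ERSE and did not pass the test. Capitals mark the element, printed on the gene's own strand, so that in Creld2, Calr and Hsp90b1 it reads as the reverse complement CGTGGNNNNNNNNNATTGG. All stretches end before the gene's start.
Creld2 (chr15:88819500-88819558, plus strand, ERSE): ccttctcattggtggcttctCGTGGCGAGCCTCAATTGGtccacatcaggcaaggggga
Dnajc3 (chr14:118937807-118937865, plus strand, ERSE): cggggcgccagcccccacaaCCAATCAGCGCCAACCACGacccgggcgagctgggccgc
Syvn1 (chr19:6046512-6046570, plus strand, ERSE): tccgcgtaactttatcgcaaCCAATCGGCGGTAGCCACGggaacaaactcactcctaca
Herpud1 (chr8:94386357-94386407, plus strand, ERSE-II): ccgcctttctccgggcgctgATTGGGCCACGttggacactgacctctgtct
Hspa5 (chr2:34772005-34772063, plus strand, ERSE): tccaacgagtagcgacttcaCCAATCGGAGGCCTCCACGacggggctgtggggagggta
Calr (chr8:84847055-84847113, minus strand, ERSE): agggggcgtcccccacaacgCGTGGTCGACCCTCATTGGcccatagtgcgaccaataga
Hsp90b1 (chr10:86705513-86705571, minus strand, ERSE): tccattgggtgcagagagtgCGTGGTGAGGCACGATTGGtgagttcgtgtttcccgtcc

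The element begins 126 bases before the start in Creld2, 105 in Dnajc3, 65 in Hspa5, 52 in Herpud1 and 44 in Syvn1. Hsp90b1 holds a further copy, which begins 212 bases before its start and faces the other way. Of the 10 genes with an ERSE, 3 rose (Creld2, Dnajc3 and Syvn1) and 0 fell, with a median log2 difference of 0.15 and 8 positive differences. The other 7 were Hspa5 (0.26), Ero1lb (0.25), Calr (0.05), Canx (0.03), Hsp90b1 (0.03), Derl3 (-0.01) and Pdia6 (-0.03). Both genes with an ERSE-II rose, though in Dnajb11 it lies after the gene's start, from 7 to 17 bases downstream. Of the 24 genes with neither element in the window, 4 were higher and 1 lower, with a median of -0.03. The 7 genes without a listed window included Hyou1 and Atf6, which rose. These groups of genes were set side by side without a test.

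**Figure D2:**
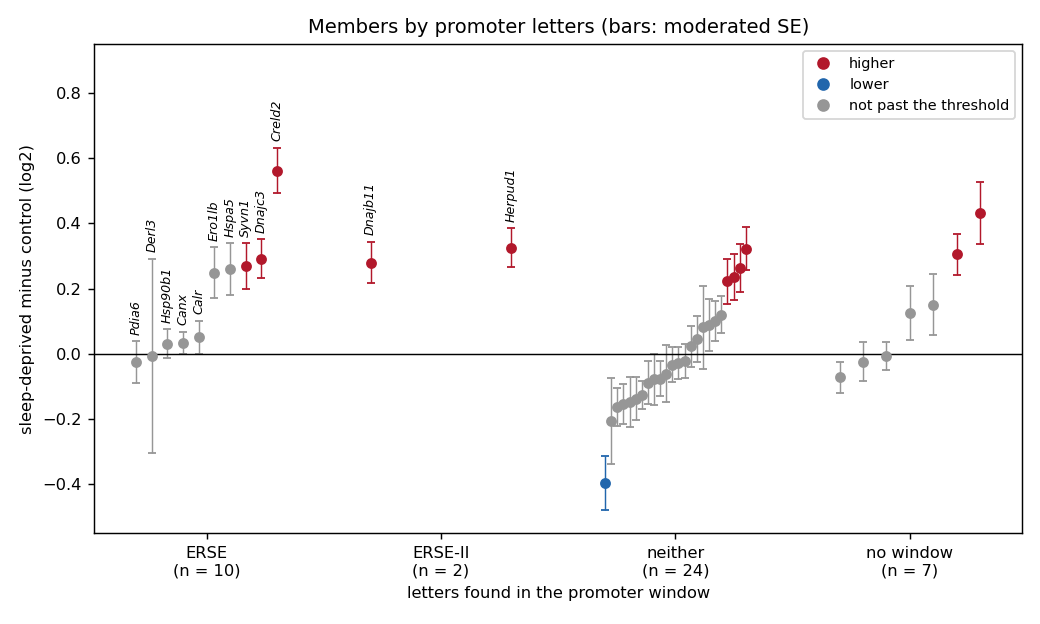
Log2 difference between sleep-deprived and control mice (y axis, bars are moderated SE) for the 43 genes, split by the letters found in the promoter window (x axis). The 10 genes with an ERSE run from -0.03 (Pdia6) to 0.56 (Creld2), both ERSE-II genes lie near 0.3, and the 24 genes with neither run from -0.40 to 0.32.

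Among the 14 chaperones and co-chaperones, 4 rose and 0 fell, and 12 differences were positive. Creld2, a secretory-pathway disulfide isomerase known as an ER stress marker, had the largest difference. Its log2 level ran from 6.82 over a median of 6.94 to 7.25 in controls, and from 7.30 over 7.61 to 7.70 in sleep-deprived mice. Every sleep-deprived mouse was thus above every control, by a mean of 0.56 ± 0.070 (moderated SE, n = 7 per group), or 1.48-fold (limma, adjusted p = 2.73e-05). Hyou1, a large ER chaperone of the HSP70 family that serves as nucleotide exchange factor of BiP, ran from 8.11 over 8.32 to 8.63 in controls and from 8.41 over 8.96 to 8.99 after sleep deprivation. Sleep-deprived mouse 10, at 8.41, was the only 1 of the 7 inside the control range. The difference was 0.43 ± 0.095, or 1.35-fold (limma, adjusted p = 0.00556).

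Dnajc3 and Dnajb11 encode J-domain co-chaperones of BiP, and Dnajc3 (also called P58IPK) is known as an inhibitor of PERK. Dnajc3 ran from 9.59 over 9.67 to 9.75 in controls and from 9.77 over 9.98 to 10.15 in sleep-deprived mice, without overlap. It rose by 0.29 ± 0.059 (limma, adjusted p = 0.00291). Dnajb11 ran from 7.50 over 7.68 to 7.76 in controls and from 7.66 over 7.99 to 8.04 in sleep-deprived mice. Again only mouse 10, at 7.66, lay inside the control range, and the rise was 0.28 ± 0.064 (limma, adjusted p = 0.00723).

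Hspa5, the central chaperone, was just outside the threshold. It ran from 7.63 over 7.86 to 8.13 in controls and from 7.89 over 8.06 to 8.35 in sleep-deprived mice. All 7 sleep-deprived mice were above the control mean and 3 were above the highest control, with a difference of 0.26 ± 0.080 (95% interval 0.09 to 0.43, limma, adjusted p = 0.0522). Control mouse 14 had the 8.13, and without it the difference was 0.31 (adjusted p = 0.0151). Hspa5 also passed with robust eBayes (adjusted p = 0.045), with the brighter genes alone (0.0306), after a second quantile normalization (0.0371), with the sample number as a covariate (0.0426) and without sleep-deprived mouse 1 (0.0488) or mouse 5 (0.0315). Over all 23 alternatives its adjusted p ran from 0.0151 to 0.11.

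The other 9 chaperones did not pass the test. For Hsp90b1 (GRP94) the 95% interval of the log2 difference was -0.06 to 0.12, for the lectin chaperones Calr and Canx it was -0.05 to 0.16 and -0.04 to 0.10, so rises of the size seen for Creld2 or Hyou1 lie outside these intervals. Manf, a small secreted ER stress protein, was at 0.15 ± 0.094, with sleep-deprived mouse 2 highest at 5.23 and a control range of 4.52 to 4.87 (limma, adjusted p = 0.437). Without mouse 2 the difference was 0.085, and with the sample number as a covariate 0.070. Hspa13, Dnajb9 and Sdf2l1 lay between 0.08 and 0.13, Sil1, another exchange factor of BiP, was at -0.07 ± 0.047, and the reductase Dnajc10 was at -0.15 ± 0.076. Sdf2l1 was among the more variable genes, with an SD of 0.241 in controls and 0.323 in sleep-deprived mice.

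**Figure D3:**
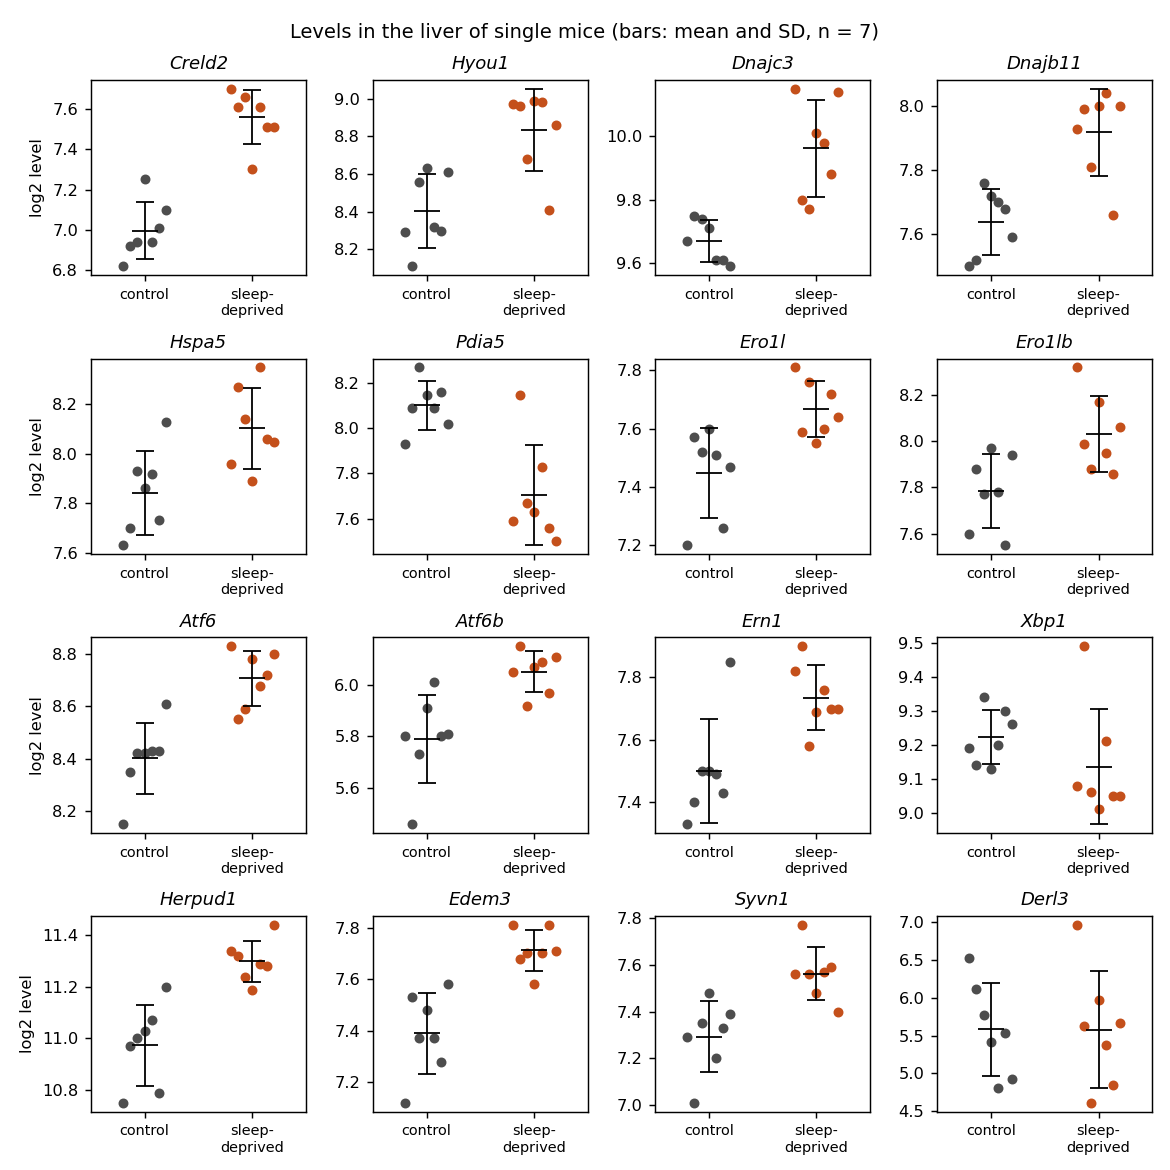
Log2 level (y axis) of 16 of the genes in each of the 7 control (grey) and 7 sleep-deprived (orange) mice, with the mean and SD as bars. Creld2 and Dnajc3 do not overlap between groups, Pdia5 is lower in 6 of 7 sleep-deprived mice than in any control, and Derl3 is spread widely in both groups.

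Genes of oxidative folding went in both directions, with 1 of 7 higher and 1 lower. Here 2 differences were positive and 5 negative, with a median of -0.027. Pdia5, a protein disulfide isomerase, was the sole gene of the 43 to fall. It ran from 7.93 over 8.09 to 8.27 in controls and from 7.50 over 7.63 to 8.15 in sleep-deprived mice. Mouse 2, at 8.15, was the only sleep-deprived mouse within the control range, and the other 6 lay below it. The difference was -0.40 ± 0.083 (limma, adjusted p = 0.00385), and -0.47 without mouse 2. Ero1l, the ER oxidase that recharges protein disulfide isomerase (current symbol Ero1a), ran from 7.20 over 7.51 to 7.60 in controls and from 7.55 over 7.64 to 7.81 after sleep deprivation. Its rise of 0.22 ± 0.068 was close to the threshold (limma, adjusted p = 0.0469). The call was lost in 10 of the 14 fits without 1 mouse (adjusted p up to 0.108), and held only without sleep-deprived mouse 2 or 5 or control mouse 7 or 9. It was also lost in 5 of 9 other settings, among them the mean of its 2 probe sets (0.17, adjusted p of 0.0965). Its paralog Ero1lb was at 0.25 ± 0.078, with all 7 sleep-deprived mice above the control mean (limma, adjusted p = 0.0551). Ero1lb passed in 3 of the 9 other settings: robust eBayes (adjusted p = 0.0475), the brighter genes alone (0.0319) and a further quantile normalization (0.0309). It also passed in 4 of the 14 fits without 1 mouse. These left out sleep-deprived mouse 3 (0.044) or mouse 10 (0.0399), or control mouse 9 (0.0371) or mouse 14 (0.041). In the remaining settings and fits Ero1lb did not pass, with an adjusted p of up to 0.125.

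The other isomerases did not pass the test. P4hb, the classical protein disulfide isomerase, was at -0.13 ± 0.044 with all 7 sleep-deprived mice below the control mean (limma, adjusted p = 0.0912), and it passed without control mouse 14 (-0.15, adjusted p = 0.036). Ppib, the ER cyclophilin, was at -0.14 ± 0.066 (adjusted p = 0.262). For Pdia3 and Pdia6 the 95% intervals were -0.13 to 0.08 and -0.16 to 0.11.

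Of the 5 sensors and transcription factors, 3 rose and 0 fell, and 4 differences were positive. Atf6 ran from 8.15 over 8.42 to 8.61 in controls and from 8.55 over 8.72 to 8.83 in sleep-deprived mice, a difference of 0.30 ± 0.063, or 1.24-fold (limma, adjusted p = 0.00366). The 2 sleep-deprived mice inside the control range, mice 2 and 3, lay below the 8.61 of control mouse 14. Atf6b, its paralog, rose by 0.26 ± 0.073 (limma, adjusted p = 0.0276), from a control range of 5.46 to 6.01 to one of 5.92 to 6.15. This call was lost without sleep-deprived mouse 2 (adjusted p = 0.0542), mouse 5 (0.0521) or mouse 13 (0.0578) and without control mouse 8 (0.0534).

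Ern1, which encodes IRE1, ran from 7.33 over 7.49 to 7.85 in controls and from 7.58 over 7.70 to 7.90 in sleep-deprived mice. Control mouse 14 held the 7.85, and the other controls reached 7.50, below every sleep-deprived mouse. The rise was 0.24 ± 0.071 (limma, adjusted p = 0.0423). Without control mouse 14 it was 0.29 (adjusted p = 0.00234), it also held without sleep-deprived mouse 3, and the call was lost in the other 12 fits without 1 mouse (adjusted p up to 0.0898). Xbp1, the target of IRE1, did not pass the test. Its level was 9.13 over 9.20 to 9.34 in controls and 9.01 over 9.06 to 9.49 in sleep-deprived mice, with a difference of -0.09 ± 0.065 (limma, adjusted p = 0.54). It was -0.15 without sleep-deprived mouse 2 (adjusted p = 0.0667) and -0.05 after a further quantile normalization. Sleep-deprived mouse 2 was highest of all 14 mice, while 5 of the other 6 lay below every control. Eif2ak3, which encodes PERK, was at 0.045 ± 0.070 (95% interval -0.10 to 0.19), with all 7 sleep-deprived mice inside the control range. Without control mouse 4 it was 0.013 and without control mouse 14 it was 0.082, the lowest and highest over the fits without 1 mouse.

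Of 12 ERAD genes 3 rose and 0 fell, but 5 differences were positive and 7 negative, with a median of -0.006. Herpud1, a membrane protein that organises the retrotranslocation complex, ran from 10.75 over 11.00 to 11.20 in controls and from 11.19 over 11.29 to 11.44 in sleep-deprived mice. The difference was 0.33 ± 0.059, or 1.25-fold (limma, adjusted p = 0.00103). Edem3, a mannosidase that marks misfolded glycoproteins, ran from 7.12 over 7.37 to 7.58 and from 7.58 over 7.70 to 7.81, and rose by 0.32 ± 0.066 (limma, adjusted p = 0.00341). In both genes 6 of 7 sleep-deprived mice exceeded every control, and the exception was mouse 5. Syvn1, the ubiquitin ligase HRD1, rose by 0.27 ± 0.070, from a control range of 7.01 to 7.48 to one of 7.40 to 7.77 (limma, adjusted p = 0.0179, and 0.0536 with the sample number as a covariate).

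The other 9 ERAD genes did not pass the test. Sel1l, the adaptor of HRD1, was at -0.02 with a 95% interval of -0.13 to 0.09, and Derl1, a channel protein, at -0.01 with -0.10 to 0.08. Edem1 (-0.03) and Edem2 (-0.15 ± 0.061, limma, adjusted p = 0.146) are relatives of Edem3. Edem2 passed with the sample number as a covariate (-0.22, adjusted p = 0.0215). Os9, Selk (Selenok), Vimp (Selenos) and Derl2 lay between -0.08 and 0.10. Derl3, a derlin of secretory cells, varied more between mice than any other gene of the list: its SD was 0.615 in controls and 0.773 in sleep-deprived mice, and its level ran from 4.81 over 5.54 to 6.52 and from 4.61 over 5.63 to 6.96. The sleep-deprived mice spread wider at both ends, with 1 above and 1 below every control (difference -0.01 ± 0.298), and 7 mice per group leave a 95% interval from -0.63 to 0.62. Derl3 was picked out for its spread after its values were seen.

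In the translocon, the channel through which new proteins enter the ER, 0 of 5 genes passed (2 at an unadjusted p under 0.05). Of these differences 1 was positive and 4 were negative. Sec61a1, the channel subunit, was at -0.02 (95% interval -0.15 to 0.10). Sec63, a J-domain partner of the channel, was at -0.16 ± 0.058, with all 7 sleep-deprived mice below the control mean (limma, adjusted p = 0.1, and 0.024 without control mouse 4). Sec62 was at 0.12 ± 0.057. Sec61b was at -0.21 ± 0.133 (limma, adjusted p = 0.453); it alone of the 43 lay below the median level of all genes, and its other probe set gave -0.04. The mean of both was -0.12, and without control mouse 11 the difference was -0.11.

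**Figure D4:**
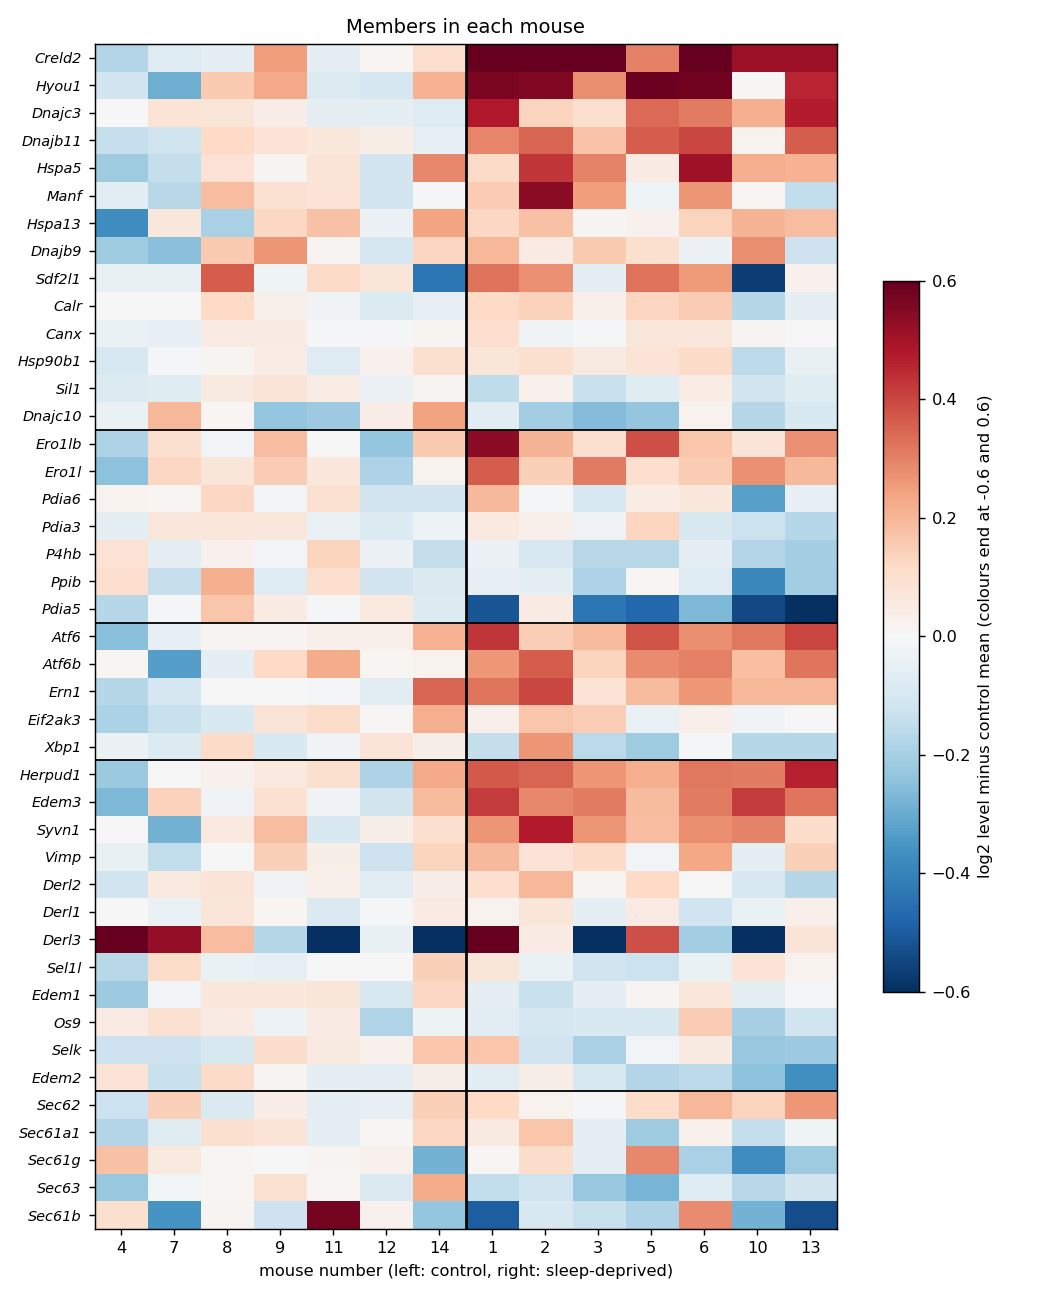
Log2 level minus the control mean (colour) of the 43 genes (rows, grouped by role and sorted by difference) in each mouse (columns, controls left of the black line). By this sorting, each block runs from its highest to its lowest difference, and the Derl3 row is strongly coloured in both groups.

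Within each group, some mice were lowest or highest at more of these genes than others. Averaged over the 14 chaperones, the level relative to the control mean lay between -0.11 and 0.08 in controls and between 0.02 and 0.24 in sleep-deprived mice, where mouse 10 was lowest and mouse 6 highest. The groups overlapped through mouse 10. For the sensors and transcription factors the range was -0.14 to 0.17 in controls and 0.08 to 0.27 in sleep-deprived mice. There sleep-deprived mice 3, 5, 10 and 13 lay inside the control range. For oxidative folding (-0.10 to 0.09 against -0.17 to 0.08), ERAD (-0.07 to 0.04 against -0.05 to 0.23) and the translocon (-0.05 to 0.10 against -0.17 to 0.05) the ranges overlapped too. Mouse 10 was the lowest of the sleep-deprived mice at 12 of the 43 genes and at 5 of the 14 chaperones, while mice 1, 2 and 6 were each the highest at 11 genes. Of the 11 genes that rose, mice 1 and 6 lay inside the control range at 1, mice 2 and 13 at 2, mouse 3 at 3, mouse 10 at 4 and mouse 5 at 5. Among controls, mouse 4 was lowest at 20 of the 43 genes and mouse 14 highest at 15. These ranks were not set beside the same counts over all genes. Without control mouse 4, 9 genes were higher and 2 lower, without control mouse 14, 12 and 2, and without sleep-deprived mouse 10, 10 and 1.

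**Figure D5:**
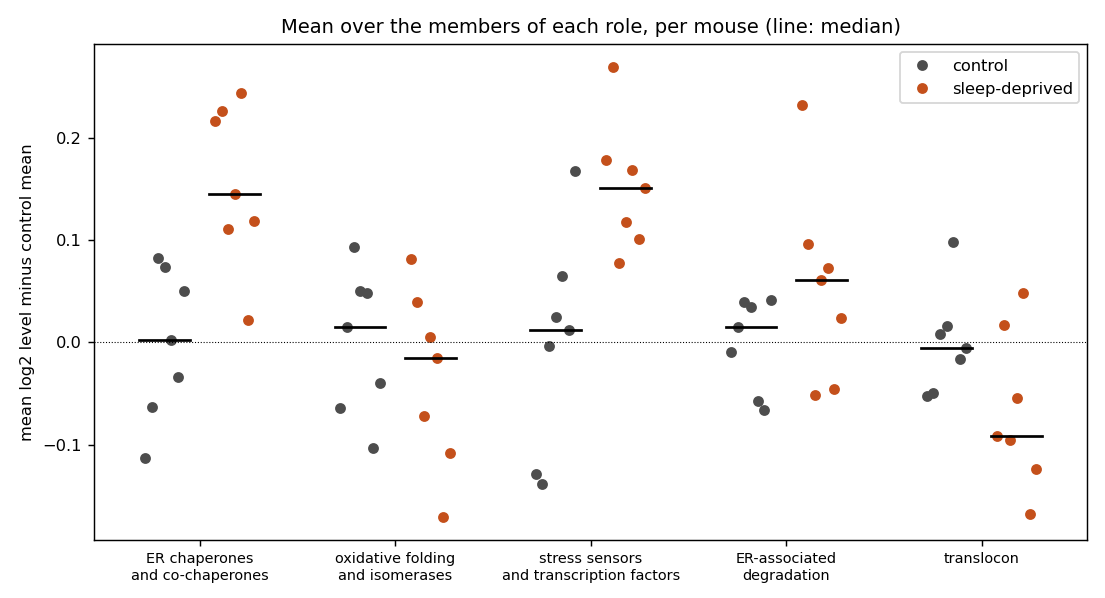
Mean log2 level over the genes of each role minus the control mean (y axis) in each control (grey) and sleep-deprived (orange) mouse, with the group median as a line. Chaperones run from 0.02 to 0.24 in sleep-deprived mice and from -0.11 to 0.08 in controls, and the translocon has its sleep-deprived median below the control median.

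Of 129 measured genes of the same pathways outside the list, 11 were higher and 5 lower (8.5% and 3.9%), with a median of 0.018. Over all genes the shares were 3.88% higher and 4.62% lower. When only the genes above the median level were tested, 16 of 124 were higher and 8 lower. Among all such genes, 9.43% were higher and 10.9% lower. The difference from the 43 genes was not tested. In ER-to-Golgi transport 5 of 30 were higher and 0 lower. Sec24d, a cargo-selecting COPII coat subunit, ran from 7.83 over 7.95 to 8.26 in controls and from 8.38 over 8.49 to 8.56 in sleep-deprived mice and rose by 0.50 ± 0.058, or 1.41-fold (limma, adjusted p = 1.27e-05). Mcfd2, the partner of the cargo receptor LMAN1, rose by 0.40 ± 0.066 without overlap of the groups, the COPII subunit Sec23a by 0.25 ± 0.053 and the COPI subunit Copb1 by 0.17 ± 0.050. The remaining 1 was Sec22b, a vesicle SNARE, at 0.20 (limma, adjusted p = 0.0373). Among translocation, signal peptidase and oligosaccharyltransferase genes 1 of 32 was higher and 0 lower. That gene was Tram2, a translocon-associated protein, at 0.61 ± 0.088, or 1.52-fold (limma, adjusted p = 0.000119), which ran from 6.92 to 7.30 in controls and from 7.47 to 8.06 in sleep-deprived mice.

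In the list of other UPR regulators 3 of 19 were higher and 1 lower. Atf4, the transcription factor downstream of PERK, rose by 0.23 ± 0.055 (limma, adjusted p = 0.0102), from 6.06 to 6.31 in controls and 6.33 to 6.52 in sleep-deprived mice, without overlap. Among genes known to lie downstream of ATF4, Herpud1 rose, as given above. Of the others in the same list, Ddit3 (CHOP) was at -0.02 ± 0.068, Trib3 at -0.09 ± 0.122, Chac1 at 0.19 ± 0.133 and the phosphatase subunit Ppp1r15a (GADD34) at 0.20 ± 0.075 (limma, adjusted p = 0.107), and none of these 4 passed the test. Tmem33, an ER membrane protein, rose by 0.28 ± 0.066 and the ER-bound factor Creb3 by 0.23 ± 0.058. Nfyb, a subunit of the NF-Y factor that binds the CCAAT part of the element shown above, was lower at -0.44 ± 0.090 (limma, adjusted p = 0.0034), with controls from 5.92 to 6.53 and sleep-deprived mice from 5.40 to 5.85. Nfyc, another NF-Y subunit, was at -0.04 ± 0.086 (limma, adjusted p = 0.871).

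Other folding genes had 1 of 27 higher and 2 lower. The J-domain protein Dnajc1 rose by 0.21 ± 0.062, the disulfide isomerase family member Txndc5 was lower at -0.32 ± 0.055 without overlap of the groups (limma, adjusted p = 0.000641), and the prolyl isomerase Fkbp9 was lower at -0.23 ± 0.057. Of other ERAD genes 1 of 21 was higher and 2 lower. Ufd1l (current symbol Ufd1), a cofactor of the extracting ATPase VCP, rose by 0.23 ± 0.060, the lectin Erlec1 was lower at -0.20 ± 0.057, and Erlin1, an ER membrane protein also known to bind the sterol-regulating SREBP complex, was lower at -0.53 ± 0.120 (limma, adjusted p = 0.00656).

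The samples carried the markers of liver: Alb, the albumin gene, was at 13.31 and the plasma carrier gene Ttr at 12.98 in control means. In bulk tissue, fewer cells of a type and less RNA per cell cannot be told apart. Of 7 measured hepatocyte markers 2 were higher and 0 lower. The log2 of their summed linear levels was 15.05 to 15.12 in controls and 15.10 to 15.14 in sleep-deprived mice. Ranges in brackets below are this same measure, in which the brightest markers of a type weigh most. Higher markers numbered 2 of 8 for sinusoidal endothelial cells (10.45 to 10.78 against 10.60 to 10.99), 1 of 8 for stellate cells (10.15 to 10.59 against 10.18 to 10.72), 1 of 8 for Kupffer cells (9.03 to 10.21 against 9.19 to 10.00) and 1 of 6 for cholangiocytes (6.62 to 6.91 against 6.82 to 7.88), with 0 lower in each. The largest of these differences were Lyve1 (1.13) of endothelial cells and Cd163 (0.88) of Kupffer cells. Of the cholangiocyte markers, Sox9 and Muc1 had highest sleep-deprived values of 7.11 and 6.61, beside group medians of 5.98 and 3.88. Differences were positive at 7 and negative at 1 of 8 endothelial markers, and positive at 4 and negative at 4 of 8 Kupffer cell markers. For B cells and plasma cells, the latter rich in ER, 0 of 7 were higher and 1 was lower (7.24 to 7.35 against 7.20 to 7.48). The lower 1 was the dim Cd79a, with a control mean of 3.49, while the brightest was Sdc1 at 6.65. Of 7 pancreatic acinar markers (6.44 to 6.87 against 6.37 to 6.91), 8 T and NK cell markers (6.15 to 6.39 against 6.20 to 6.39), 7 neutrophil markers (5.41 to 5.58 against 5.42 to 5.63) and the 1 measured red blood cell marker (3.60 to 4.28 against 3.75 to 4.00), 0 passed. The part of these cell types in the results was not tested, and the table holds no detection calls to tell which markers were absent.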

How the data were processed

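Liver RNA of 14 mice (100 ng each) was labelled for Affymetrix arrays covering whole transcripts, as the labels' protocols state. The authors deposited log2 values per probe set made by RMA, which the submitters' processing notes name without a version; which software, annotation and filters they used was not found in the labels. RMA narrows differences of dim genes. Depth does not apply to arrays, whose number, 7 per group, limits the precision. Each sample is taken as 1 mouse from its title; were they not separate animals, p-values would measure only the spread between samples. Groups came from the titles.

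Of 41345 probe sets, 23521 had 1 gene symbol in the platform annotation, 1814 several and 16010 none listed; the brightest per gene was kept (22180 genes, no filter on dim ones). Current symbols placed Ero1l, Ero1lb, Selk and Vimp. Sleep-deprived minus control was fitted with limma 3.58.1 in R 4.3.3 (eBayes with intensity trend, two-sided), with Benjamini-Hochberg adjustment over the whole table and a threshold of 0.05. On simulated data, the fit recovered 87% of 100 differences of 0.5 and 98% of 100 differences of 1, with 13 false calls. Smaller differences, the size of most called here, were not simulated. No other genes were changed in the simulation, while 8.5% of all genes were called in the data. Its noise was drawn independently for each gene, so shifts of a mouse shared by many genes were not simulated. Intervals at 95% use the moderated SE. Motifs were matched letter for letter with Python 3.11.15. No genome build is named for the arrays, so positions are given for RefSeq promoters only.

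The genes and lists were chosen with earlier results of these data known. Named were all genes of the list past the threshold, 6 sensors or factors including Hspa5, the 3 largest others in each direction, up to 4 per other list and direction, and Atf4, Ddit3, Ppp1r15a and Trib3. The remaining genes of the list are given to account for every member, and Sec22b, Chac1, Nfyc and the cell markers named were added after their values were seen. Alternatives were 9 other settings and 14 fits without 1 mouse.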

Additional observations from a re-analysis of the deposited data

Results flagged for a closer look

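In 5 of the 86 groups of 7 values checked (43 genes in each group of mice), 1 mouse lay far from the other 6 by Dixon's criterion, which chance meets in about 1 of 20 groups. Ern1 was at 7.85 in control mouse 14, where the other controls lay between 7.33 and 7.50. Sec61g, a small translocon subunit, was at 7.31 in the same mouse, against 7.59 to 7.77. Xbp1 was at 9.49 in sleep-deprived mouse 2, against 9.01 to 9.21 in the other sleep-deprived mice. Sdf2l1 was at 6.13 in sleep-deprived mouse 10, against 6.64 to 7.02. Os9, an ERAD lectin, was at 9.63 in sleep-deprived mouse 6, against 9.28 to 9.41.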

How the results depend on the processing

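Over the 9 other settings the number of listed genes that were higher ran from 9 to 13, and over the 14 fits without 1 mouse from 8 to 12, beside 11 as reported. The number lower ran from 1 to 2 without 1 mouse and was 3 with the sample number as a covariate, where P4hb (-0.17) and Edem2 (-0.22) joined Pdia5. The median log2 difference ran from 0.011 to 0.051 over the settings and from 0.023 to 0.057 without 1 mouse. Among the other pathway genes the number higher ran from 9 to 16 over the settings and from 8 to 13 without 1 mouse. The number lower ran from 4 to 7 without 1 mouse. It was 8 rather than 5 when the brighter genes alone were fitted and adjusted. No named gene of the list that was called changed sign in any of the 23 alternatives. The calls of Creld2, Hyou1, Dnajc3, Dnajb11, Pdia5, Atf6, Herpud1 and Edem3 held in all of them. No paired analysis was possible because the numbers in the titles are not shared between groups.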
